A study of Mus musculus with 9 samples.

Results

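The genes described here are 7 genes that mark meningeal fibroblasts and the arachnoid barrier, the membranes that lie between the brain and the skull: Ptgds, Slc6a13, Slc22a6, Slc47a1, Gjb2, Gjb6 and Cldn11. They were chosen by name from the 43548 gene identifiers of the expression table. The rule used no measured values, although earlier results of these data were known when the genes were chosen. All 7 were found, each as a single row. All 7 also passed the filter of a mean of at least 0.5 FPKM (fragments counted per length of transcript and per mapped reads of the library) over the 9 libraries, which left 18714 genes for testing.

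The meninges are layered sheets of connective tissue that wrap the brain and develop in close contact with the overlying skull mesenchyme. Fibroblasts of the inner layers secrete proteins into the cerebrospinal fluid and make retinoic acid, chemokines and basement membrane. The outer arachnoid cells are sealed by tight junctions, coupled by gap junctions, and carry pumps that move organic anions, cations and neurotransmitters out of the fluid. A piece of cranial vault taken for RNA can hold some of this tissue, since the meninges adhere to the inner face of the skull.

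RNA was taken from E14.5 mouse embryos of mixed strain. The MCAGF8 vault came from embryos that carry Msx2-Cre and CAGF8, an Fgf8b cDNA placed in the Rosa26 locus that is expressed from the CAG promoter once Cre has acted. Msx2-Cre acts in the surface ectoderm and was not detected in the mesenchyme beneath it. The transgene is thus driven outside the mesenchyme that was meant to be collected. Epidermal markers were nevertheless found in the libraries, as described below, so some ectoderm can have been included. The study reports no differential expression of Fgf8 between MCAGF8 and control vault tissue, which it relates to removal of the skin beforehand. The control vault and the control base came from embryos that the labels call wildtype and that the study describes as lacking Cre. The study states that Cre mice were bred to mice homozygous for the Fgf8b allele, so that every offspring inherits it. By that scheme the controls carry the allele too, in its inactive form. Each of the 3 groups had 3 libraries, each a pool of RNA from 3 tissue samples, or 9 samples a group. The skin had been peeled away before the vault was collected, and the base was meant to supply cranial base cartilage. The base was dissected from control embryos after their vault had been taken, so both control tissues can come from the same embryos. Which embryos entered which pool is not stated, the fit treated all libraries as independent, and differences between single embryos cannot be seen within a pool.

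Gjb2 and Gjb6 are neighbours. On GRCm38 (GENCODE M21) Gjb2 (ENSMUSG00000046352) lies on the minus strand of chromosome 14 at chr14:57098600-57104702 and Gjb6 (ENSMUSG00000040055) on the same strand at chr14:57123303-57133611, with 18.6 kb between them. One predicted coding gene, Gm4491, lies in the gap and reached at most 0.044 FPKM in any library. They are the only members on a common chromosome. In the main fit, over all 9 libraries without rescaling, they were also the only members that passed the test in any comparison below. Their 250 bases before the annotated start (RefSeq, GRCm38.p6, minus strand, written 5′ to 3′) are shown for that reason, at chr14:57104703-57104952 for Gjb2 and chr14:57133612-57133861 for Gjb6. Capitals mark GC boxes, the letters GGGCGG on either strand.
Gjb2: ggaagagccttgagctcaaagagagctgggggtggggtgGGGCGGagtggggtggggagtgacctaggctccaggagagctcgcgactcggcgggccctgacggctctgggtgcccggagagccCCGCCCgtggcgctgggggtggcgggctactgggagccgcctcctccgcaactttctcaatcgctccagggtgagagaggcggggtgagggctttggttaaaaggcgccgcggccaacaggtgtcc
Gjb6: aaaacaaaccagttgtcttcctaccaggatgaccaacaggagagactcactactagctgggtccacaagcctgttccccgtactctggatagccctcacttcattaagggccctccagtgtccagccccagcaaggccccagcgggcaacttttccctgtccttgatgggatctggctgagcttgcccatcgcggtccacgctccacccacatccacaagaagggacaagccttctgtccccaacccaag
The Gjb2 stretch holds 2 GC boxes and has a GC content of 69.2%, against 56.8% for the Gjb6 stretch and a median of 52.4% over 32851 promoters of the same length. A GC box was found in 32.7% of those promoters. The letters TATAAA of the core promoter box were found on neither strand of these 2 stretches. Nor were CCAAT, which nuclear factor Y binds, or the ETS core CCGGAAG. These 3 motifs are held by 12.4%, 33.8% and 6.91% of promoters. A TCF/LEF core (CTTTGA), which 13.8% of promoters hold, was found in the Gjb2 stretch and not in the Gjb6 stretch. The promoters share no motif among the 5 searched, and a match or its absence describes these letters alone.

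The remaining members lie apart. Ptgds (ENSMUSG00000015090) is at chr2:25466709-25470046 on the minus strand, Slc6a13 (ENSMUSG00000030108) at chr6:121300227-121337733 on the plus strand, and Slc22a6 (ENSMUSG00000024650) at chr19:8618039-8628299 on the plus strand. Slc47a1 (ENSMUSG00000010122) is at chr11:61343401-61378345 on the minus strand and Cldn11 (ENSMUSG00000037625) at chr3:31149920-31164324 on the plus strand. Each of the 3 carriers has a relative next to it on the same strand, and those relatives were expressed at low levels. Slc6a12, next to Slc6a13, ranged from 0.322 to 0.796 FPKM over the 9 libraries. Slc22a8, next to Slc22a6, ranged from 0.177 to 1.36 FPKM, and Slc47a2, next to Slc47a1, from 0 to 0.466 FPKM.

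The meningeal genes spanned a wide range of levels, and their order was read in the control vault, where libraries agreed best. FPKM corrects for transcript length, so levels can be set beside each other. Ptgds had the highest mean, at 164 ± 23.3 FPKM (SD, n = 3), above 94.5% of the genes tested. Cldn11 followed at 125 ± 23.1 FPKM, and the libraries of those 2 genes overlapped. Gjb6 stood at 30.6 ± 7.54 FPKM, Gjb2 at 18.5 ± 0.529 FPKM and Slc6a13 at 15.4 ± 1.02 FPKM. Slc22a6, at 5.37 ± 1.14 FPKM, and Slc47a1, at 0.753 ± 0.255 FPKM, were the lowest. From Cldn11 downwards, no neighbours in this order overlapped in the control vault.

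**Figure D1:**
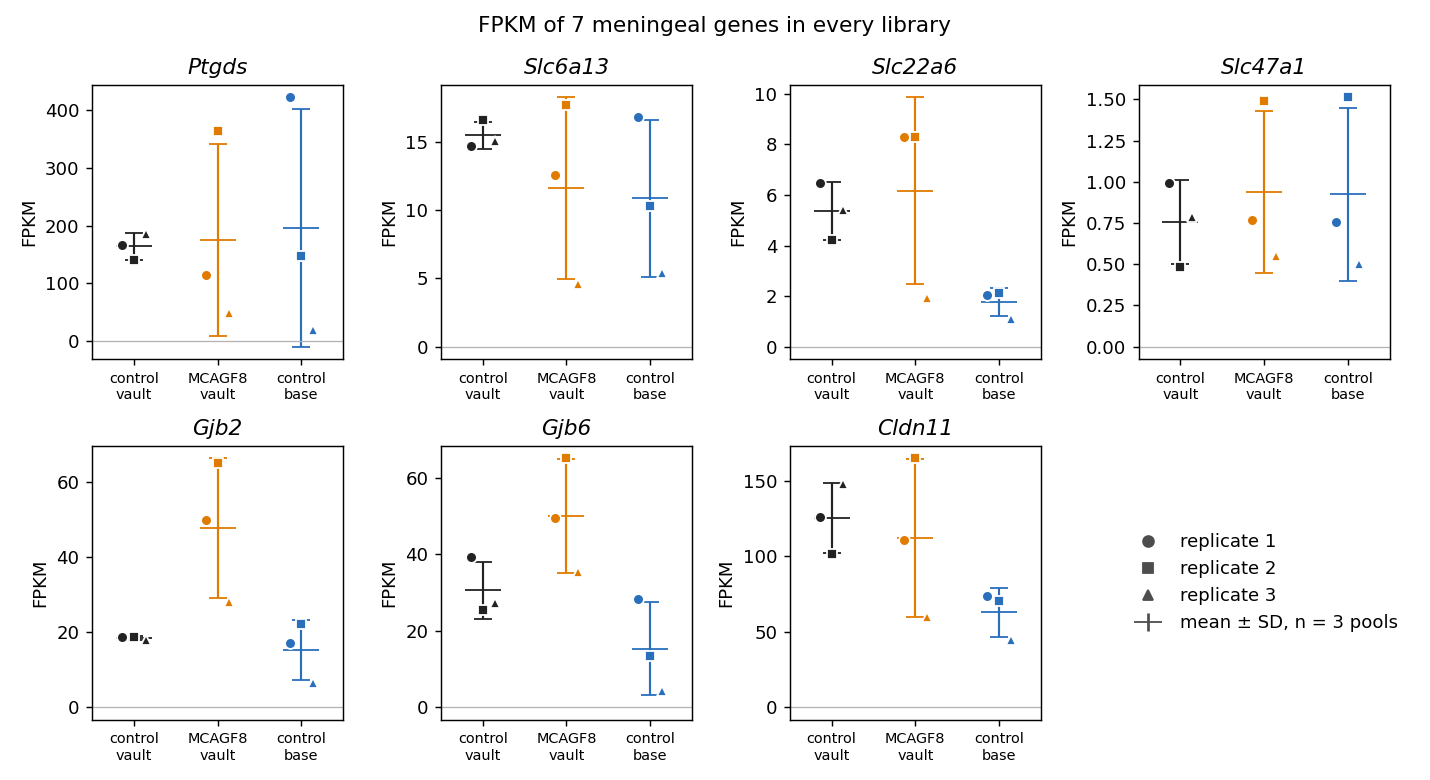
FPKM of each of the 7 genes in every library, on a separate linear vertical axis for each gene, with the control vault in black, the MCAGF8 vault in orange and the control base in blue. Marker shapes give the replicate number, the horizontal line the mean and the bars the SD of 3 pools. In the MCAGF8 vault replicate 2 was the highest and replicate 3 the lowest for all 7 genes, and in the control base replicate 3 was the lowest for all 7.

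Ptgds encodes lipocalin-type prostaglandin D synthase, an enzyme that the leptomeninges secrete into the cerebrospinal fluid. Its FPKM was 166, 140 and 186 in control vault replicates 1, 2 and 3. In the MCAGF8 vault it was 114, 364 and 48.2, and in the control base 422, 147 and 19.5. The highest library exceeded the lowest 1.33-fold in the control vault, 7.54-fold in the MCAGF8 vault and 21.7-fold in the control base, so the groups overlapped in every comparison.

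No comparison of Ptgds passed the test. Genes were fitted in limma over all 9 libraries on log2(FPKM + 1), and a call needed both a p under 0.05 and an adjusted p (Benjamini-Hochberg) under 0.1. All differences and standard errors (SE) below are on that log2 scale. The difference was -0.59 (SE 1.00, adjusted p = 0.933) for the control base against the control vault, with a 95% interval from -2.84 to 1.66. For the MCAGF8 vault against the control vault it was -0.36 (SE 1.00, adjusted p = 0.987), with an interval from -2.62 to 1.89. Between the MCAGF8 vault and the base it was 0.23. On the linear scale the order was the reverse in all 3 comparisons, with means of 164 FPKM in the control vault, 175 ± 166 in the MCAGF8 vault and 196 ± 206 in the base, so the sign depends on the scale. Each of the 2 intervals holds a 2-fold change in either direction.

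Other genes of prostaglandin metabolism were called in none of the 3 comparisons (0 of 10 tested in limma), and 0, 1 and 1 of them had an unadjusted p under 0.05 in the base against the control vault, the MCAGF8 against the control vault and the MCAGF8 vault against the base. The most abundant were Ptges3, a co-chaperone that also has prostaglandin E synthase activity, and Ptgis, the prostacyclin synthase. Ptges3 stood at 104 ± 13.9, 88.8 ± 8.34 and 127 ± 42.8 FPKM in the control vault, the MCAGF8 vault and the control base, and Ptgis at 46.4 ± 4.98, 22.9 ± 4.20 and 35.0 ± 7.20 FPKM. Ptgis was called lower in the MCAGF8 vault than in the control vault after the libraries were rescaled to equal sums, and also after quantile normalization.

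Slc6a13 encodes GAT2, a carrier for GABA and taurine in the meninges. Its FPKM was 14.7, 16.6 and 15.0 in the control vault, 12.6, 17.7 and 4.55 in the MCAGF8 vault, and 16.8, 10.3 and 5.41 in the control base. Replicate 3 was the lowest in both other groups, and 1 library of each lay above the control vault. The difference from the control vault was -0.59 (SE 0.47, adjusted p = 0.747) in the control base and -0.55 (SE 0.47, adjusted p = 0.969) in the MCAGF8 vault, neither called. Between the MCAGF8 vault and the control base it was 0.04 (95% interval -1.01 to 1.09). Of 4 other GABA and taurine carriers tested, Slc6a6, the taurine transporter, was called higher in the MCAGF8 vault than in the control base, by 0.94 (adjusted p = 0.0858), at 62.2 ± 7.38 against 33.5 ± 12.4 FPKM. That call was lost after rescaling to equal sums.

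Slc22a6 encodes OAT1, an exchanger that takes up organic anions. Its FPKM was 6.49, 4.20 and 5.40 in the control vault, 8.30, 8.31 and 1.92 in the MCAGF8 vault, and 2.05, 2.11 and 1.11 in the control base. All control base libraries lay below all control vault libraries, while MCAGF8 replicate 3 fell among the base libraries and the other two MCAGF8 libraries above the control vault. The control base was lower than the control vault by a difference of -1.21 (SE 0.43, 95% interval -2.18 to -0.24). Its unadjusted p was 0.0194 and its adjusted p 0.245, so it was not called. It was called without MCAGF8 vault replicate 3, a library of neither group that enters through the shared spread (adjusted p = 0.0880). Against the control base the MCAGF8 vault differed by 1.22 (SE 0.43, adjusted p = 0.156). It was called after quantile normalization, at 1.47 (adjusted p = 0.0916), and without MCAGF8 vault replicate 3, at 1.78 (adjusted p = 0.0236). Against the control vault the MCAGF8 difference was 0.01 (95% interval -0.96 to 0.98).

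Slc47a1 encodes MATE1, which exports organic cations. It was near the filter's floor, at 0.992, 0.485 and 0.783 FPKM in the control vault, 0.765, 1.49 and 0.551 in the MCAGF8 vault, and 0.754, 1.51 and 0.504 in the control base. The groups overlapped throughout. The differences were 0.11, 0.12 and 0.01 (SE 0.28 each) for the base over the control vault, the MCAGF8 over the control vault and the MCAGF8 vault over the base. The pseudocount of 1 is as large as the values themselves, so these differences understate any change on the linear scale. Among 9 other organic ion carriers tested, Slc22a23, an orphan member of the family, was called, higher in the MCAGF8 vault than in the control base by 1.15 (adjusted p = 0.0551), at 24.9 ± 5.24 against 11.1 ± 4.21 FPKM.

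Gjb2 encodes the gap junction protein Cx26, which couples leptomeningeal and arachnoid cells and is also made in epidermis and inner ear. Its FPKM was 18.7, 18.8 and 17.9 in the control vault, 49.8, 65.0 and 28.1 in the MCAGF8 vault, and 17.0, 22.0 and 6.48 in the control base. Every MCAGF8 library lay above every library of both control tissues, and the control vault libraries were nearly equal. The MCAGF8 mean of 47.6 ± 18.6 FPKM was 2.58 times the control vault mean and 3.14 times the control base mean of 15.2 ± 7.93 FPKM.

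Gjb6 encodes Cx30, a partner of Cx26 in the same tissues. Its FPKM was 39.3, 25.4 and 27.2 in the control vault, 49.6, 65.2 and 35.5 in the MCAGF8 vault, and 28.5, 13.4 and 4.32 in the control base. The MCAGF8 libraries lay above all base libraries, but replicate 3 overlapped the control vault. The MCAGF8 mean of 50.1 ± 14.9 FPKM was 3.26 times the base mean of 15.4 ± 12.2 FPKM and 1.64 times the control vault mean.

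Both connexins were higher in the MCAGF8 vault than in the control base. The difference was 1.66 (SE 0.42, 95% interval 0.73 to 2.59) for Gjb2, with an adjusted p of 0.0540 in limma, and 1.92 (SE 0.53, 95% interval 0.74 to 3.10) for Gjb6, with an adjusted p of 0.0740. Among all genes tested 8.39% were called in this comparison in either direction, and 2.98% were called higher. Both calls were close to the threshold. Gjb2 was no longer called without MCAGF8 vault replicate 1 (adjusted p = 0.187), MCAGF8 vault replicate 2 (0.176) or control base replicate 3 (0.102). Gjb6 was no longer called without MCAGF8 vault replicate 1 (0.211), replicate 2 (0.214) or replicate 3 (0.117), without control base replicate 3 (0.123), or without control vault replicate 1 (0.102), replicate 2 (0.106) or replicate 3 (0.109). Both differences stayed above 0 in each of these fits, with a lowest value of 1.18 for Gjb2 and 1.27 for Gjb6, each without control base replicate 3.

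Against the control vault neither connexin was called. Gjb2 differed by 1.24 (SE 0.42, 95% interval 0.31 to 2.18), with an unadjusted p of 0.0145 and an adjusted p of 0.475 in limma, and its groups did not overlap. Of all genes tested, 0.604% were called in this comparison, while 9.90% were higher in the MCAGF8 vault with no overlap and 6.34% had an unadjusted p under 0.05. Gjb6 differed by 0.68 (SE 0.53, 95% interval -0.50 to 1.85, adjusted p = 0.969). The ratio of Gjb2 to Gjb6 FPKM, looked at after the values were seen, was 0.477, 0.741 and 0.657 in the control vault and 1.00, 0.997 and 0.791 in the MCAGF8 vault. In the control base it was 0.596, 1.65 and 1.50.

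Epidermal markers differed between the same groups, and Gjb2 and Gjb6 are also epidermal genes. The summed FPKM of 13 epidermal markers was 41.3, 113 and 27.8 in the control vault, 468, 427 and 1082 in the MCAGF8 vault, and 576, 109 and 773 in the control base. Of the 13 markers, 2 were called higher in the MCAGF8 vault than in the control vault, Krt5 and Pkp1, of which Krt5 alone was called after rescaling or quantile normalization, and 12 had a difference above 0. Against the base, where the connexins were called, 0 were called higher and 1 lower, Epcam. In that comparison 11 of the 13 had a difference above 0 and 2 below, with a median of 0.71 against -0.066 over all genes. In limma 4 of them had an unadjusted p under 0.05, against 19.6% of all genes. Krt5, a keratin of the basal layer, was at 180 ± 62.5 FPKM in the MCAGF8 vault, 12.0 ± 15.0 in the control vault and 57.8 ± 52.0 in the base. MCAGF8 replicate 3 had the highest epidermal sum and the lowest Gjb2 and Gjb6 of its group, and the same held for control base replicate 3. The make-up of these 2 sums differed. Krt1 and Krt10, named after their values were seen, stood at 136 and 176 FPKM in MCAGF8 replicate 3. In control base replicate 3 they stood at 3.30 and 5.31 FPKM, while Krt15 was at 112 FPKM in the former library and 300 in the latter. In the control vault, replicate 2 had the highest sum, with 18.8 FPKM of Gjb2 and 25.4 of Gjb6. The part of epidermis in the connexin values was not tested. In bulk tissue, more cells that express a gene and more RNA per cell cannot be told apart.

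Inner ear and cartilage markers also differed between libraries. The summed FPKM of 13 inner ear markers ranged from 110 to 165 in the control vault and from 144 to 152 in the MCAGF8 vault. In the control base it was 120, 1367 and 70.9, and base replicate 2 held 753 FPKM of Oc90, an otoconial protein, against 0.208 to 5.25 FPKM elsewhere. Gjb2 was highest in that base library, at 22.0 FPKM, while Gjb6 was not. The sum of 14 cartilage markers was 1114, 11347 and 1668 in the control base, 2333 to 3356 in the control vault, and 3157, 5090 and 5805 in the MCAGF8 vault. MCAGF8 replicate 3, the lowest of its group for all 7 genes, thus had the highest cartilage sum of its group. Thus 2 of the 3 base libraries had lower cartilage sums than any control vault library, although the base was collected for its cartilage. The part of these tissues in the results was not tested.

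**Figure D2:**
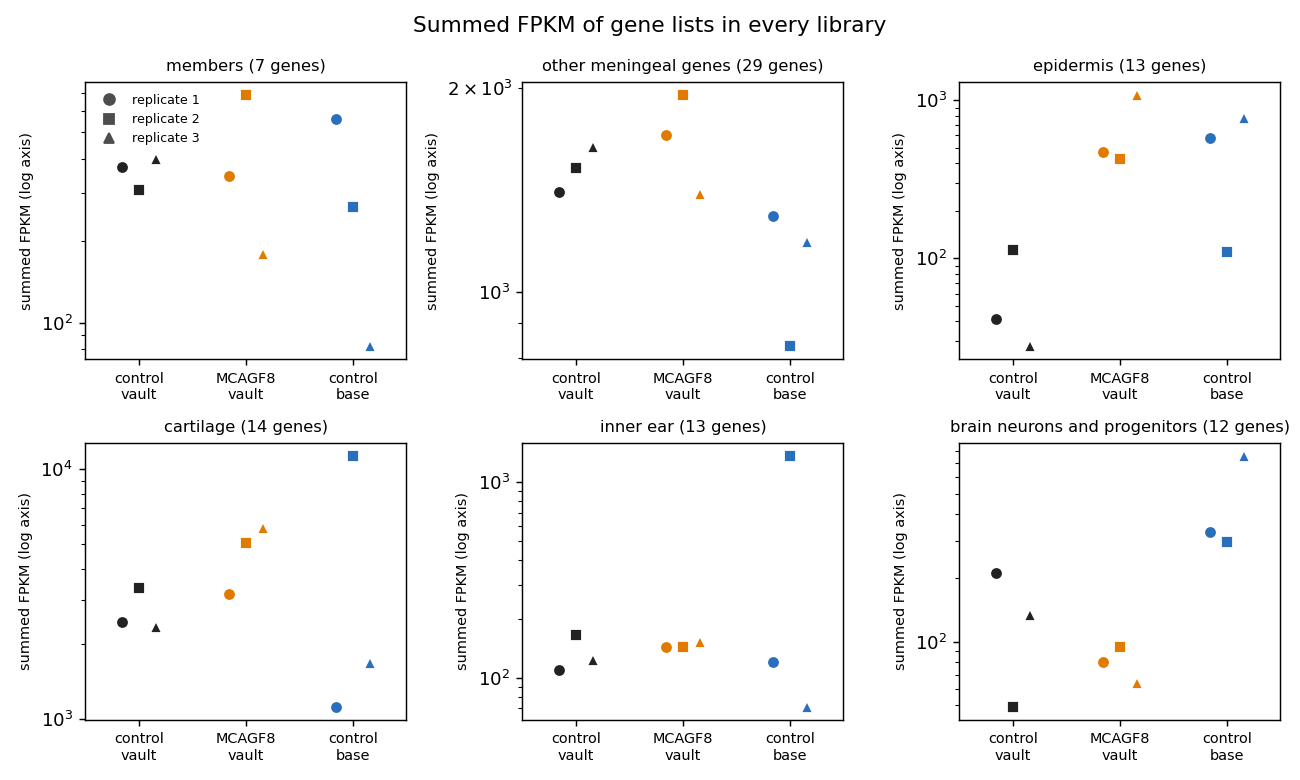
Summed FPKM (log axis, a separate scale in each panel) of the 7 genes and of 5 other gene lists in every library, with groups on the horizontal axis and replicate numbers by marker shape. MCAGF8 replicate 3 had the lowest sum of the 7 genes in its group, 179 FPKM, and the highest epidermal sum, 1082 FPKM, and control base replicate 2 stood apart in cartilage and inner ear markers.

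Other connexins behaved in more than one way. Gja1, which encodes Cx43, a connexin of skull mesenchyme and meninges, was at 419 ± 12.4 FPKM in the control vault, 505 ± 56.5 in the MCAGF8 vault and 141 ± 13.9 in the control base. It was called in both comparisons with the base, lower in the base than in the control vault by -1.57 (adjusted p = 0.00603) and higher in the MCAGF8 vault than in the base by 1.83 (adjusted p = 0.00173). Of 10 other connexins tested, Gja1 was the only one called higher in the MCAGF8 vault than in the base, and 4 were called lower: Gja5, an arterial connexin, Gjc3, a glial connexin, Gjd2, a neuronal connexin, and Gjd4. Between the MCAGF8 vault and the control vault 0 of the 10 were called in limma, and 2 had an unadjusted p under 0.05.

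Cldn11 encodes a strand-forming claudin of arachnoid tight junctions and of myelin. Its FPKM was 126, 102 and 148 in the control vault, 111, 165 and 60.1 in the MCAGF8 vault, and 74.0, 70.1 and 44.5 in the control base. All base libraries lay below all control vault libraries, and the MCAGF8 libraries spanned from within the base range to above the control vault. The difference of the control base from the control vault was -1.00 (SE 0.35, 95% interval -1.79 to -0.21), with an unadjusted p of 0.0184 and an adjusted p of 0.238 in limma, so it was not called. The MCAGF8 vault differed from the base by 0.74 (SE 0.35, adjusted p = 0.284) and from the control vault by -0.26 (95% interval -1.05 to 0.53). Mog, which defines mature oligodendrocytes, was at 0 to 0.137 FPKM in all 9 libraries. The summed FPKM of 8 genes of oligodendrocytes and Schwann cells was higher in the base, at 54.4 to 186, than in the control vault, at 16.3 to 37.6. The part of these cells in the Cldn11 values was not tested.

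Of 14 other claudins tested, 6 were called higher in the base than in the control vault and none lower, with a median difference of 1.21 against 0.067 over all genes. The count was 5 after rescaling and 3 after quantile normalization (Cldn1, Cldn4 and Cldn8). The epithelial claudins Cldn4, Cldn6, Cldn7 and Cldn1 were among them, by 2.56 (adjusted p = 0.00605), 2.70 (0.0912), 2.20 (0.0790) and 1.68 (0.0344). In the MCAGF8 vault 8 claudins were called lower than in the base and 1 higher, Cldn19, named after its values were seen, at 1.11 against 0.207 FPKM. After rescaling 5 were called lower, and after quantile normalization 7. Cldn5, the claudin of endothelium, was at 44.8 ± 8.57, 51.6 ± 14.3 and 44.9 ± 15.5 FPKM in the control vault, the MCAGF8 vault and the base.

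Set side by side, the 7 genes gave 0 calls between the control base and the control vault, 0 between both vaults and 2 between the MCAGF8 vault and the base. These comparisons share libraries in pairs and are not independent. For the base against the control vault 3.06% of all genes were called, 1.85% higher and 1.21% lower. In it 6 of the 7 genes lay below 0 on the log2 scale, with a median of -0.59 against 0.067 over all genes, 3 had an unadjusted p under 0.05, against 12.8% of all genes, and 2 lay below the control vault with no overlap, against 6.69%. The single gene above 0, Slc47a1, fell below it after quantile normalization, at -0.12. Between the vaults, where 0.230% of all genes were called higher in MCAGF8 and 0.374% lower, 4 of the 7 lay above 0 and 3 below, with a median of 0.0062 against -0.0088. For the MCAGF8 vault against the base, where 5.41% of all genes were called lower, all 7 lay above 0 on the log2 scale, with a median of 0.74 against -0.066. In it 3 had an unadjusted p under 0.05, against 19.6% of all genes, and 2 lay above all base libraries, against 8.91% of all genes. Both counts of signs include Ptgds, whose linear means had the opposite order.

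The scaling of the libraries moved the zero point of these differences. The sums of FPKM per library ran from 793249 to 1315981, and rescaling them to 1000000 shifted the median of all genes in the MCAGF8 vault against the base from -0.066 to 0.11, and against the control vault from -0.0088 to 0.13. Relative to the median of all genes, Gjb2 was 1.73 higher in the MCAGF8 vault than in the base without rescaling, 1.75 after it and 1.65 after quantile normalization. Gjb6 was 1.99, 2.01 and 1.96 higher. Both were called under all 3 scalings. Slc47a1 lay above 0 by 0.08 relative to that median and below it by -0.05 after rescaling, so its sign is not fixed. Among all calls of that comparison, 35.5% were higher in the MCAGF8 vault, 48.5% after rescaling and 58.7% after quantile normalization. For the base against the control vault 60.6% of calls were higher in the base, and 37.7% after quantile normalization.

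**Figure D3:**
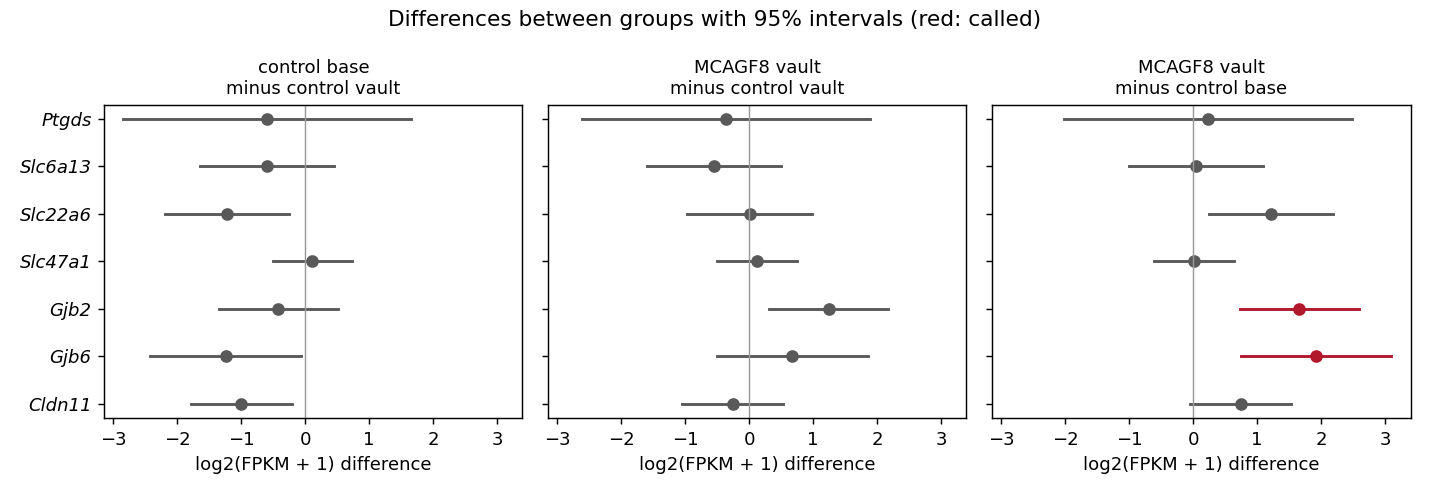
Difference in log2(FPKM + 1) for each of the 7 genes in the 3 comparisons, with points for the estimate, bars for the 95% interval from limma, and red for genes called. Gjb2 at 1.66 and Gjb6 at 1.92 were called between the MCAGF8 vault and the control base, and the Ptgds intervals were the widest.

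The 7 genes shared 1 order of libraries in the MCAGF8 vault but not in the control groups. In the MCAGF8 vault all 7 were highest in replicate 2, next in replicate 1 and lowest in replicate 3, an order that 30.0% of all genes tested followed. In the control base all 7 were lowest in replicate 3, where 16.4% of all genes were lowest. Among 29 other meningeal genes, 19 were lowest in MCAGF8 replicate 3, where 38.0% of all genes were lowest, and 17 in base replicate 3. In the control vault 5 of the 7 were lowest in replicate 2, against 27.2% of all genes, but its libraries differed little. The summed FPKM of the 7 genes was 372, 307 and 400 in the control vault, 346, 686 and 179 in the MCAGF8 vault, and 561, 267 and 81.8 in the base. Ptgds and Cldn11 together made up most of it in each library. In base replicate 3 the sum of 12 brain markers was the highest of all libraries, at 757 FPKM against 49.0 to 329 elsewhere, while MCAGF8 replicate 3 had the lowest brain sum of its group, at 63.9. The part of tissue composition in this order was not tested.

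Pearson correlations over the 9 libraries are given as a description, with group, pool and library shared between the points. Over the 21 pairs of members r ran from 0.30 to 0.93, with a median of 0.62. The closest pair was Slc22a6 and Cldn11, at 0.93, followed by Ptgds and Slc6a13, at 0.88, and Gjb2 and Gjb6, at 0.86. Slc47a1 and Gjb6 were the least alike, at 0.30.

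Among 12934 genes with a mean of at least 5 FPKM, leaving out the 7 genes themselves, the most similar profiles by Pearson r over the 9 libraries were as follows. For Gjb2 they were those of the transcription factor genes Hlf (0.93) and Erg (0.92). For Gjb6 they were Slc13a4 (0.93), a sulfate carrier of the meninges, and Nppc (0.92), which encodes C-type natriuretic peptide. Nppc was also near the top for Slc22a6 (0.93) and Cldn11 (0.92), together with Rftn2 (0.95) for the former and Klf2 (0.91) for the latter. Nppc stood at means of 8.54 FPKM in the control vault, 9.86 in the MCAGF8 vault and 5.36 in the base. Slc6a13 was closest to the gene model Gm15148 (0.92) and Ccdc73 (0.87), Ptgds to Gm15148 (0.89) and an identifier with no symbol (ENSMUSG00000050347, 0.91), and Slc47a1 to Gm6159 (0.85) and Otor (0.80), an otic and cartilage protein.

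Taken as a summed list, the other meningeal genes had FPKM in all groups. Crabp2 and Cxcl12, which other mesenchyme also makes, had the highest means over all libraries. The sum therefore cannot show how much meningeal tissue the libraries held. Several carriers and pumps on the list were low in all libraries. Slc22a2 ranged from 0.0504 to 1.94 FPKM, Slc22a8 from 0.177 to 1.36, Slc6a12 from 0.322 to 0.796 and Abcb1a from 0.309 to 0.849. Abcg2 was higher, at 30.3 to 67.8 FPKM (Slc22a2, Abcb1a and Abcg2 were named after their values were seen). Of 30 listed, 29 were in the table and were tested, and Foxc2 was not analysed here. Their summed FPKM was 1405 to 1639 in the control vault, 1396 to 1956 in the MCAGF8 vault and 831 to 1296 in the base. Crabp2, a retinoic acid carrier, stood at 290 ± 54.1, 217 ± 66.0 and 243 ± 120 FPKM in the control vault, the MCAGF8 vault and the base. Cxcl12, a chemokine of the meninges, stood at 229 ± 37.3, 303 ± 72.2 and 274 ± 71.3 FPKM. Neither was called in any comparison, and both are also made by other mesenchyme.

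Against the control vault, 4 of these 29 genes were called lower in the base: Zic1, Fxyd5, Ccn3 and Dkk2, and 1 was called higher, Rdh10 (Dkk2 and Rdh10 were named after their values were seen). Zic1, a transcription factor of meninges and skull mesenchyme, fell from 170 ± 41.0 to 34.0 ± 31.1 FPKM, a difference of -2.77 (adjusted p = 0.0713). Fxyd5, an ion pump regulator, fell from 183 ± 25.6 to 59.7 ± 15.6 FPKM, a difference of -1.62 (adjusted p = 0.0160). After rescaling to equal sums 2 of the 29 were called lower, Ccn3 and Fxyd5, and 0 higher, and Zic1 and Rdh10 were not called after quantile normalization either.

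In the MCAGF8 vault 8 of the 29 were called higher than in the base and 0 lower, with a median of 0.44. Zic1 reached 340 ± 42.2 FPKM, a difference of 3.79 from the base (adjusted p = 0.0113), and Zic2, a related factor, 73.3 ± 20.3 against 14.9 ± 15.5 FPKM, a difference of 2.76 (adjusted p = 0.0444). Fxyd5, at 170 ± 41.2 FPKM, differed by 1.49 (adjusted p = 0.0113) and Angptl2, a secreted glycoprotein, at 118 ± 25.9 against 54.9 ± 5.97 FPKM, by 1.07 (adjusted p = 0.0156). The count was 8 after rescaling and 9 after quantile normalization. Against the control vault 1 was called, Ccn3, a matricellular protein gene, which was lower, at 37.6 ± 14.0 against 135 ± 24.1 FPKM, a difference of -1.86 (adjusted p = 0.0727). Ccn3 was not called there after rescaling or after quantile normalization, while Wnt6, named after its values were seen, was called higher after rescaling.

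**Figure D4:**
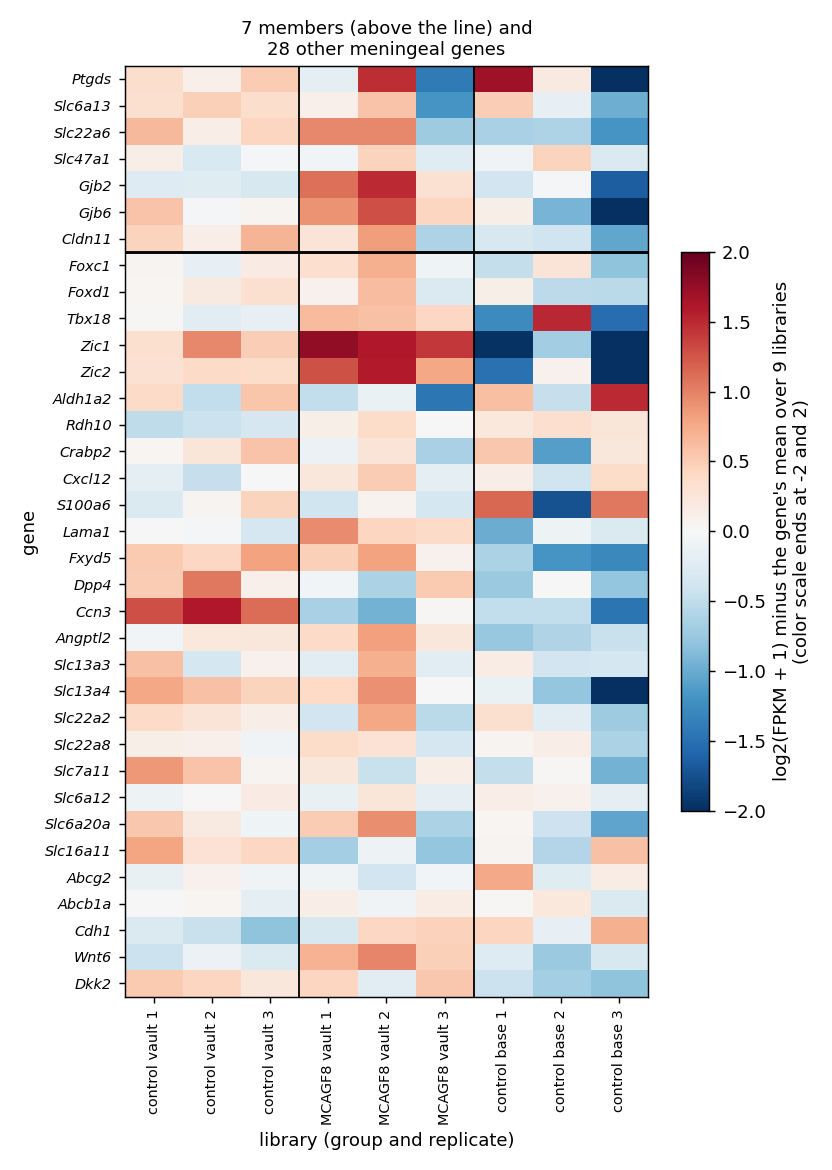
Deviation of log2(FPKM + 1) from each gene's mean over the 9 libraries, with genes as rows (the 7 genes above the line, 28 other meningeal genes below it) and libraries as columns in their 3 groups. Red is above and blue below the mean, with the color scale ending at -2 and 2. Gjb2, Gjb6, Zic1 and Zic2 are above their mean in all 3 MCAGF8 libraries, and base replicate 3 is blue for all 7 genes.

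Markers of the remaining tissues give the setting of these values. Of 10 skeletal muscle genes, 8 were called lower in the MCAGF8 vault than in the control vault and 10 lower than in the base. Of 13 bone genes, 8 were called lower in the MCAGF8 vault than in the control vault, and Ibsp, a bone matrix protein, stood at 24.9 ± 22.3 against 1231 ± 479 FPKM. Of 8 endothelial genes, 3 were called higher in the MCAGF8 vault than in the base, and of 9 macrophage genes, 4 were. Of 8 choroid plexus genes, Ttr was at 0.113 to 5.84, Folr1 at 0.177 to 2.42, Kl at 0.167 to 0.401 and Otx2 at 0.0266 to 7.02 FPKM over the 9 libraries. Sostdc1, a secreted signaling antagonist, was higher, at 6.86 ± 2.17, 22.9 ± 2.48 and 39.2 ± 27.1 FPKM in the control vault, the MCAGF8 vault and the base, and was called higher in the base than in the control vault by 2.16 (adjusted p = 0.0468). Clic6 was called lower in the MCAGF8 vault than in the base, at 1.05 ± 0.188 against 6.27 ± 1.62 FPKM, and so was Kcnj13, whose call was lost after rescaling and after quantile normalization. Aqp1, a water channel of many tissues, was the most abundant, at 221 ± 32.2, 253 ± 55.3 and 90.6 ± 9.16 FPKM, and was called lower in the base than in either vault. The whole list summed to 214 to 266 FPKM in the control vault, 224 to 334 in the MCAGF8 vault and 112 to 181 in the base. The part of these tissues in the values of the 7 genes was not tested.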

How the data were processed

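RNA from the control vault, the MCAGF8 vault and the control base was measured in 3 libraries each, every library a pool of 3 tissue samples. Libraries were stranded and made from mRNA, reads were single-end, and gSNAP was the mapper. The authors computed the deposited FPKM, 1 value per Ensembl gene and library, with Cufflinks, which the submitters' processing notes name too. Their versions, the genome build and the annotation were not given in sources used here. Read numbers are unknown, so no counting interval is given, and the SD of 3 pools describes the precision.

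Here 63 rows with a repeated identifier were summed, and 9 genes with 17 placeholder cells were left out. Symbols matched 42375 of the 43539 identifiers kept. FPKM were not rescaled. The 18714 genes with a mean of at least 0.5 FPKM were fitted as log2(FPKM + 1) with limma 3.58.1 in R 4.3.3 (eBayes with trend), with 1 mean per group over 9 libraries and two-sided tests, and p-values were adjusted over all genes tested. The script was tested on simulated data. The study used ANOVA in R. Tables and plots used Python 3.11.15, pandas 2.3.3, numpy 2.4.6 and matplotlib 3.10.9.

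The 7 genes and the 17 other lists were chosen with earlier results of these data known, and a list is described by counts and medians. From each list, up to 5 genes called in any comparison (in order of mean FPKM) and the 2 with the highest mean could be named, and for each of the 7 the 2 genes with the most similar profile. Values of the lists not named in the text are within these counts: of 12 inner ear genes tested in limma 0 were called in any comparison (2, 0 and 3 had an unadjusted p under 0.05 in the base against the control vault, between the vaults and in the MCAGF8 vault against the base), and of 14 cartilage genes 1 was called, Comp, lower in the MCAGF8 vault than in the base. Of 6 mural cell genes 1 was called, Pdgfrb, higher in that comparison, and of 10 brain genes tested 6 were called lower in it (Tubb3 was not analysed here). The call of Comp was lost after rescaling to equal sums and held after quantile normalization. In the base Comp stood at 11.0, 77.5 and 11.9 FPKM. One of the 29 other meningeal genes enters counts and sums but is not reported here by itself. Alternatives were other pseudocounts, filters, scalings, thresholds and models, a replicate block, and leaving out each library.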

Additional observations from a re-analysis of the deposited data

How the results depend on the processing

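Each comparison was refitted under 20 alternatives. The count of the 7 genes called in the MCAGF8 vault against the control base, 2, became 0 with the 2 groups' libraries alone, with no filter on low values, with a per-gene model without moderation and with an adjusted p under 0.05. It became 3 after quantile normalization and with an unadjusted p under 0.05 alone, with Slc22a6 as the added gene. Leaving out 1 library gave 0 to 2. The counts of 0 in the other comparisons became 3 between base and control vault and 1 between both vaults with an unadjusted p under 0.05 alone, and 0 to 1 and 0 to 0 when 1 library was left out. In the first, the gene called was Gjb6 without control base replicate 1 (-1.83, adjusted p = 0.0746) or Slc22a6 without MCAGF8 vault replicate 3. The causes of these changes were not tested beyond the smaller numbers of libraries or the stricter thresholds themselves. Over the alternatives the adjusted p for the MCAGF8 vault against the base ran from 0.0148 to 0.187 for Gjb2 and from 0.0212 to 0.214 for Gjb6, and against the control vault from 0.131 to 1.00 for Gjb2. At a mean of at least 5 FPKM Slc22a6 and Slc47a1 were not tested.

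Signs changed for differences near 0. They also changed farther from it, at -0.59 for Ptgds and -0.42 for Gjb2, both in the base against the control vault. Slc22a6 in the MCAGF8 vault against the control vault became -0.043 and -0.051 with pseudocounts of 0.1 and 0.01, and ran from -0.27 to 0.56 without 1 library. Slc47a1 in the base against the control vault became -0.12 after quantile normalization and ran from -0.10 to 0.27 without 1 library. The other ranges without 1 library that crossed 0 were -0.18 to 0.22 and -0.073 to 0.27 for Slc47a1 in the MCAGF8 vault against the base and the control vault, -0.34 to 0.55 for Slc6a13 in the MCAGF8 vault against the base, -0.59 to 0.13 for Cldn11 in the MCAGF8 vault against the control vault, and -0.75 to 0.064 for Gjb2 in the base against the control vault. For Ptgds they were -1.57 to 0.61, -0.98 to 1.21 and -1.12 to 0.32 for base over control vault, MCAGF8 vault over base and MCAGF8 vault over control vault.

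Whether same-numbered libraries share embryos or a batch is not stated. Deviations of same-numbered libraries from their group means correlated at -0.41, 0.00030 and 0.24 between base and control vault. The values were 0.37, -0.066 and -0.43 between MCAGF8 and control vault, and -0.27, -0.55 and -0.29 between MCAGF8 vault and base. These correlations cannot decide on pairing, since the deviations within a group sum to 0 and hold every difference between its libraries. With the replicate block 0, 0 and 2 of the 7 genes were called in these comparisons, and all genes called moved from 573 to 234, from 113 to 19 and from 1571 to 918. Over all alternatives without the block, all genes called ran from 130 to 2396, 0 to 1186 and 587 to 4561.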
